A study of Homo sapiens with 7 samples.

Results

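The transcription factors that mark the primitive streak and the earliest mesoderm were followed in hESCs after induction of JMJD3c, the catalytic domain of the H3K27 demethylase JMJD3. The genes were taken by name: EOMES, T (brachyury), MIXL1, GSC, EVX1, LHX1, MESP1, MESP2, TBX6 and TBX3, which are 10 of the 22670 genes listed in each sample and 10 of the 20174 on chromosomes 1 to 22, X and Y. RNA-seq was performed on 7 libraries, 1 per condition. All cells were SEES-3, a human embryonic stem cell line, which constitutively expressed the reverse Tet-transactivator and carried a piggyBac transgene, and puromycin selection gave stable clones. How many clones each line came from is not given in the sources used here. The JMJD3c line, with an inducible HA-tagged JMJD3c that has a nuclear localization signal, was sampled before Dox was added (Day 0) and after 1, 2, 3 and 4 days in 1 µg/ml Dox. The mutant line carried the same domain with a point mutation that removes its catalytic activity, and was sampled untreated and after 4 days of Dox. Every library came from cells kept in feeder-free conditions in StemFit AK-03, a medium that maintains undifferentiated hESCs, on iMatrix-511.

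The primitive streak is the region of the early embryo where cells leave the epiblast and become mesoderm or endoderm. Nodal and WNT signals switch on T-box factors, such as T and EOMES, and homeobox factors, such as MIXL1 and GSC, in these cells. MESP1, MESP2 and TBX6 are known as factors of the mesoderm that follows. In undifferentiated hESCs most of these genes are silent or nearly so, and many carry H3K27me3, the mark that JMJD3 removes.

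FPKM is a number of reads scaled by the length of the transcript and the depth of the library, so levels can be compared between genes. The deposited values come with the 95% interval that Cufflinks gives for the estimate in 1 library. These intervals do not describe the variation between cultures, and no condition had a replicate, so the differences lack a check against replicates and are given without p-values. A gene was called upregulated where the ratio of FPKM was above 2 and the higher value was above 4 FPKM, and downregulated where the ratio was below 0.5 and the reference was above 4 FPKM. The steps of single reads among low values gave depths between 1770000 reads (Day 0) and 3660000 reads (the untreated mutant line). At the unit chosen, 194 values lay at 1 to 8 reads and 4 lay midway between these steps, with 18 more at 0.5 read and 10 at 1/3 of a read. At a doubled depth the values at 1 to 8 reads would all be even numbers of reads. Not every value was a whole number of reads, so the depths and read counts are estimates. Where a gene was listed at 0, a floor of 3 reads was used to give a lower bound for its ratio. This bound takes the higher value as it stands, and the lower limit of the exact 95% counting interval is given beside it. Floors and read intervals cover counting error only. KDM6B, the gene that encodes JMJD3 and to which reads of the transgene can also map, was at 3.45 FPKM at Day 0 and 282 FPKM at Day 4, and at 2.40 and 454 FPKM in the mutant line without and with Dox. The 8 pluripotency markers examined, POU5F1 and NANOG among them, were above 4 FPKM in every library.

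Of the 10 factors, 7 were upregulated at Day 4 compared with Day 0 (EOMES, T, MIXL1, GSC, EVX1, LHX1 and TBX3), against 2.98% of all genes on chromosomes. The Cufflinks intervals of both samples were apart for each of the 7, against 1.28% of all genes that were upregulated with intervals apart. Cufflinks gives an interval of 0 to 0 to a gene listed at 0, as EOMES, GSC, EVX1 and LHX1 were at Day 0. MESP1, MESP2 and TBX6 did not pass the cutoffs in any comparison made here. In bulk RNA, more cells that express a gene and more RNA per cell cannot be told apart. The summed level of the 10 factors was 9.28, 19.4, 49.7, 91.0 and 140 FPKM from Day 0 to Day 4, and was 9.08 and 6.33 FPKM in the mutant line without and with Dox. The sum grew at every day of Dox, and both libraries of the mutant line stood below the Day 0 sum.

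**Figure D1:**
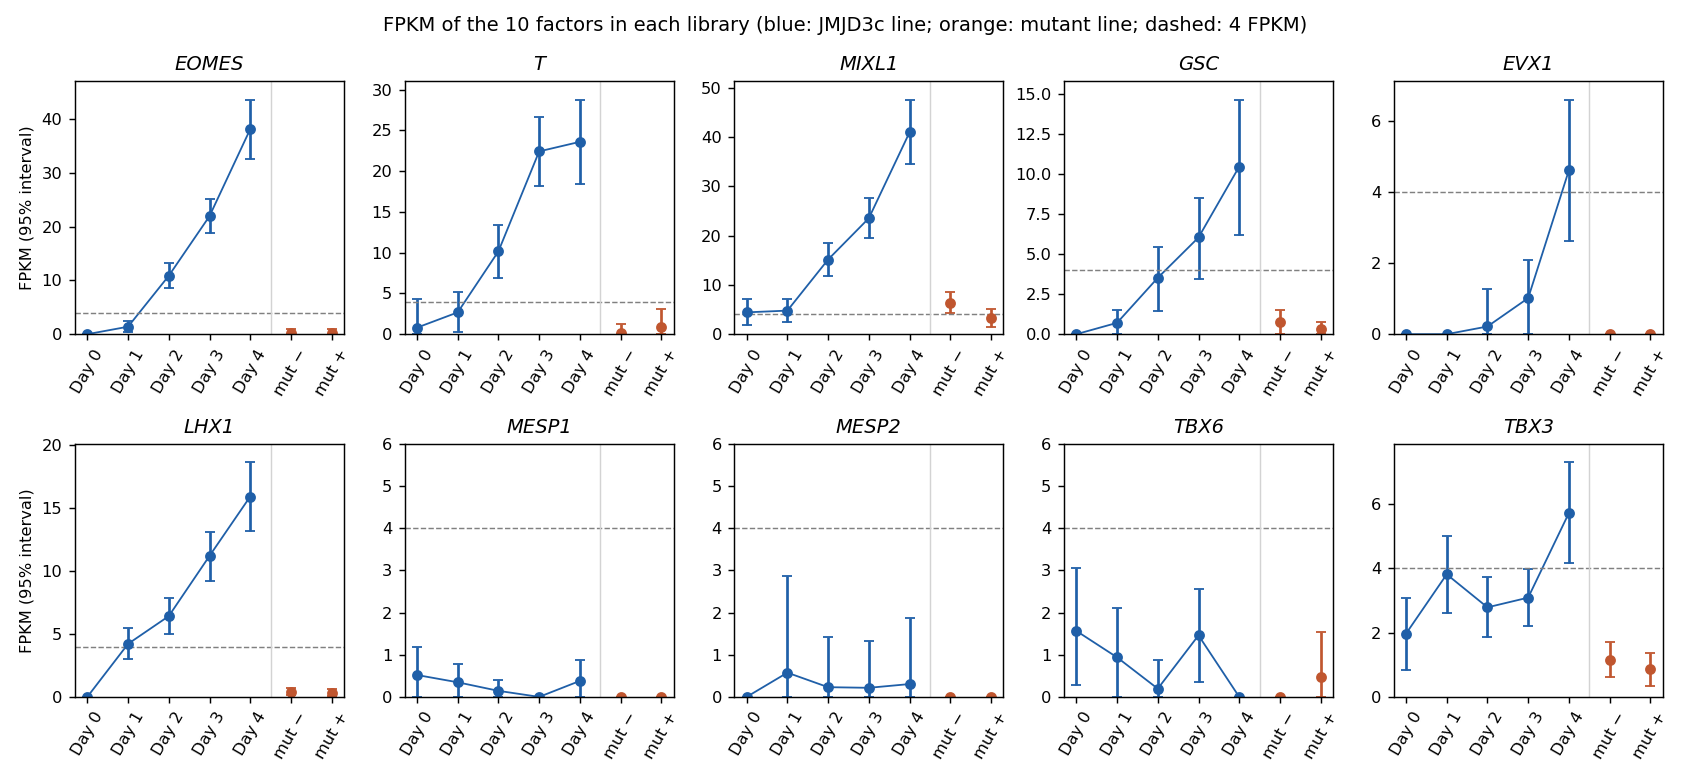
FPKM (y axis, linear, own scale per gene) of the 10 factors in each of the 7 libraries (x axis). Points are single libraries, bars are the Cufflinks 95% intervals, blue marks the JMJD3c line, orange the mutant line without (mut −) and with Dox (mut +), and the dashed line is 4 FPKM. The panels of the 7 upregulated factors reach their highest value at Day 4, while MESP1, MESP2 and TBX6 stay below 4 FPKM.

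To show the sequence before an annotated start of genes that moved together and of genes that did not, RefSeq promoter windows were printed. Those of MIXL1, T and GSC are given beside those of MESP2 and TBX6. The windows cover the 250 bases before the annotated start, and bases inside an annotated exon, or inside the gene span of the deposited files where it extends past the annotated gene, were left out. Entries were found for 7 of the 10 genes. LHX1, MESP1 and TBX3 had no entry. Capitals mark the letters of 4 motifs, searched on both strands and chosen after the sequences were seen: GGTGTG (T-box), CTTTGA (TCF/LEF), TGTNNATT (FOXH1) and CAGAC (SMAD). They were found in 14.2%, 11.2%, 9.88% and 38.0% of the 35116 RefSeq promoter windows of the same length. Coordinates are those of an exact match to GRCh37, the assembly of hg19, and each sequence reads 5′ to 3′ on the strand of its gene.
MIXL1, chr1:226411115-226411318, plus strand: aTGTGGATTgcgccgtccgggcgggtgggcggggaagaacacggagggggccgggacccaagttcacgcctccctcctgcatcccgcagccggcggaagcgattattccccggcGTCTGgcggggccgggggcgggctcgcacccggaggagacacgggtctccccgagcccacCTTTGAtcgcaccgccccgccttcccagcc
T, chr6:166581340-166581589, minus strand: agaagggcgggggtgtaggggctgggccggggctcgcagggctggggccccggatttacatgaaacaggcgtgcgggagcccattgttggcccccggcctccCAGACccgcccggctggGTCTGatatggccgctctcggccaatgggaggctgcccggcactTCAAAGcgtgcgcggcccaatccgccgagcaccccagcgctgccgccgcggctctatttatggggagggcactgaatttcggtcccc
GSC, chr14:95236563-95236700, minus strand: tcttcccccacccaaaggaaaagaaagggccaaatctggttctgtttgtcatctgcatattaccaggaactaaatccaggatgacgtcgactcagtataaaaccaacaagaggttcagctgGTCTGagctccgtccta
MESP2, chr15:90319313-90319562, plus strand: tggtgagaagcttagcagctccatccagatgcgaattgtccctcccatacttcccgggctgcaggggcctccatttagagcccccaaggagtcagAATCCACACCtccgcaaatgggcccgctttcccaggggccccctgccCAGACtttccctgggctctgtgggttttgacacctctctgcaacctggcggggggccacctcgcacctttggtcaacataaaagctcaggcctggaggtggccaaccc
TBX6, chr16:30103246-30103495, minus strand: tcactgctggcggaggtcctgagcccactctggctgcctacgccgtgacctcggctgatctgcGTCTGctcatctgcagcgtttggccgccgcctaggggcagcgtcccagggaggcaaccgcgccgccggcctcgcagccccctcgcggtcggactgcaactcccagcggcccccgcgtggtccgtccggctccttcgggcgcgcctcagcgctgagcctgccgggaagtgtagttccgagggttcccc
The MIXL1 window held a FOXH1, a SMAD and a TCF/LEF match, and the T window held 2 SMAD matches and 1 TCF/LEF match. The GSC window held a single SMAD match, as did that of TBX6. In the MESP2 window a T-box and a FOXH1 match shared bases, and a SMAD match followed. The T window shown is that of the second of 2 entries and lies in the T gene span outside its exons. The window of the first T entry held none of the 4 motifs. The MESP2 window likewise lies inside the MESP2 gene span and outside its exons. The EOMES window lies in exons, and the rule above left no base of the EVX1 window, so neither is described. A match is a run of letters and was not tested as a binding site.

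EOMES, a T-box factor needed for the streak to form endoderm and cardiac mesoderm, is encoded on chromosome 3 (27757440 to 27764206, minus strand, hg19). From Day 0 to Day 4 its level was 0, 1.39, 10.9, 22.0 and 38.2 FPKM (95% interval at Day 4 32.7 to 43.6), and it was 0.257 and 0.196 FPKM in the mutant line without and with Dox. Each day of Dox was above the day before, and from Day 2 on the value exceeded all 3 libraries without active JMJD3c by more than its interval. Day 4 was at least 42.4-fold higher than Day 0 by the floor (lower counting limit 58.1), and the log2 fold change was 5.29, the highest of the 10 factors.

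T, or brachyury, the T-box factor that defines the streak and later the notochord, lies on chromosome 6 (166571144 to 166582188, minus strand). In the same order its level was 0.804, 2.68, 10.2, 22.4 and 23.6 FPKM (18.5 to 28.8 at Day 4), and it was 0.133 and 0.892 FPKM in the mutant line without and with Dox. Most of the rise lay between Day 1 and Day 3. The ratio of Day 4 to Day 0 was 29.4 with a counting interval of 10.4 to 153, since about 3 reads stood behind the Day 0 value. The gene overlaps LNCDAT, a long noncoding RNA gene on the opposite strand, and their reads cannot be told apart because it is not given whether strand was used in quantification.

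MIXL1, a homeobox factor of the streak that acts downstream of Nodal, lies on chromosome 1 (226411319 to 226414755, plus strand). It was the only factor above 4 FPKM without Dox, with 4.43 FPKM at Day 0 and 6.35 FPKM in the untreated mutant line. After 1 to 4 days of Dox its level was 4.79, 15.2, 23.5 and 41.0 FPKM (34.6 to 47.6 at the last), and it was 3.29 FPKM in the mutant line with Dox. Day 1 was within the interval of Day 0, and the intervals were apart from Day 2 on. MIXL1 was 9.24-fold higher at Day 4 than at Day 0.

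GSC, goosecoid, a homeobox repressor of the anterior streak and organizer, lies on chromosome 14 (95234553 to 95236562, minus strand). From Day 0 on its level was 0, 0.710, 3.53, 6.05 and 10.5 FPKM (6.19 to 14.7 at Day 4), and it was 0.775 and 0.295 FPKM in the mutant line without and with Dox. The values fell on steps of single reads, with 0, 2, 12, 22 and 27 reads from Day 0 to Day 4 and 3 reads and 1 read in the mutant line. GSC was at least 6.57-fold higher at Day 4 than at Day 0 by the floor (lower counting limit 4.98) and passed the cutoffs from Day 3 on. LHX1, a LIM homeobox factor of the anterior streak and node, lies on chromosome 17 (35294084 to 35301917, plus strand) and overlaps ENSG00000276707, an antisense noncoding gene. LHX1 was listed at 0, 4.21, 6.42, 11.2 and 15.9 FPKM (13.1 to 18.6 at Day 4) over the 5 days, and at 0.417 and 0.318 FPKM in the mutant line without and with Dox. Its interval was above both untreated libraries at Day 1, which held for none of the other factors, and it was at least 30.4-fold higher at Day 4 than at Day 0 by the floor (lower counting limit 24.3).

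EVX1, a homeobox factor of the posterior streak, lies on chromosome 7 (27282164 to 27287046, plus strand). No EVX1 read was found at Day 0, at Day 1 or in either mutant library, and over the last 3 days its level was 0.217, 1.01 and 4.61 FPKM (2.62 to 6.59 at Day 4). These values correspond to 1, 5 and 16 reads. EVX1 passed the cutoffs only at Day 4, later than EOMES, T, MIXL1, GSC and LHX1, and it was at least 3.91-fold higher at Day 4 than at Day 0 by the floor (lower counting limit 2.81). The gene overlaps the antisense gene EVX1-AS, whose reads cannot be told apart from its own here. TBX3, a T-box repressor that is also active in pluripotent cells and in endoderm, lies on chromosome 12 (115108059 to 115121969, minus strand) and overlaps TBX3-AS1. TBX3 was at 1.96, 3.81, 2.78, 3.09 and 5.71 FPKM (4.15 to 7.29 at Day 4) over the 5 days, and at 1.15 and 0.860 FPKM in the mutant line without and with Dox. It differed from the other upregulated factors in that Days 2 and 3 were below Day 1, and its 2.91-fold change at Day 4 was the smallest of the 7.

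The factors of nascent and presomitic mesoderm stayed low, with MESP1 and MESP2 near the detection limit and TBX6 at no more than about 10 reads. MESP1 and MESP2, paired basic helix-loop-helix factors of early mesoderm, lie 9280 bases apart on chromosome 15 (90291892 to 90294541, minus strand, and 90303822 to 90321982, plus strand). MESP1 was at 0.519, 0.346, 0.143, 0 and 0.379 FPKM from Day 0 to Day 4 and at 0 in both mutant libraries. MESP2 was at 0 at Day 0, between 0.215 and 0.574 FPKM at Days 1 to 4, and at 0 in both mutant libraries. Each value rested on at most 2 reads and was below 1 FPKM. Changes at this level were not detectable at this depth, and the counting interval of the MESP1 ratio of Day 4 to Day 0 was 0.0528 to 10.1. TBX6, a T-box factor of presomitic mesoderm, lies on chromosome 16 (30097114 to 30103208, minus strand) and was at 1.56, 0.937, 0.194, 1.46 and 0 FPKM from Day 0 to Day 4, and at 0 and 0.477 FPKM in the mutant line without and with Dox. TBX6 had no order by day, and 0 at Day 4 was shared with the untreated mutant line. The counting interval of its ratio of Day 4 to Day 0 was 0 to 0.796, with 0 and about 5 reads.

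The number of upregulated factors grew with each day of Dox. At Day 1, 1 of the 10 was called (LHX1, against 1.76% of all genes), and the median log2 fold change of the 10 was 0.68. At Day 2 there were 4 (EOMES, T, MIXL1 and LHX1, against 1.97%), with a median of 0.96. At Day 3 there were 5, with the addition of GSC (against 2.40%), and the median was 1.60. EVX1 and TBX3 were added at Day 4, when the median was 2.72. Over all genes the median log2 fold change was 0.00 at each day. None of the 10 factors was downregulated at any day, against 1.65%, 2.15%, 2.28% and 3.84% of all genes at Days 1 to 4, but MIXL1 alone was above 4 FPKM at Day 0 and could have been called. All 4 comparisons share the Day 0 library, the shallowest of the 7.

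The shape of the time course differed among the factors that rose. T reached 95% of its Day 4 level by Day 3, whereas EOMES, MIXL1 and GSC were at 57.6%, 57.4% and 57.7% of theirs. LHX1 was at 70.4%, TBX3 at 54.0% and EVX1 at 22.0%. From Day 3 to Day 4 the intervals were apart for EOMES (1.74-fold), MIXL1 (1.74-fold), EVX1 (4.54-fold), LHX1 (1.42-fold) and TBX3 (1.85-fold), against 0.927% of all genes. Those of GSC (1.73-fold) and T (1.05-fold) overlapped. Over the 4 days of Dox the FPKM ratio of T to EOMES was 1.92, 0.936, 1.02 and 0.619. At Days 1 to 3 their intervals overlapped, and at Day 4 EOMES was above T by more than the intervals. The difference in shape was not tested, since each point is 1 library.

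**Figure D2:**
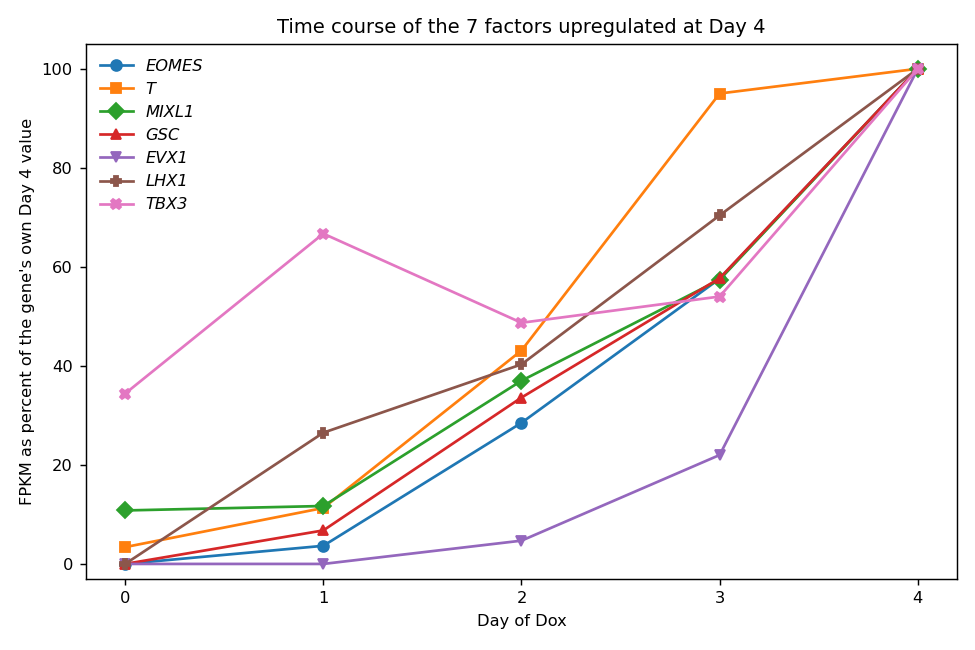
FPKM at Days 0 to 4 of Dox (x axis) as a percent of each gene's own Day 4 value (y axis), for the 7 factors upregulated at Day 4; each point is 1 library of the JMJD3c line. T is near its final level at Day 3 (95%), EVX1 is at 22.0%, and TBX3 dips after Day 1.

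At Day 4 the order of levels was MIXL1, EOMES, T, LHX1, GSC, TBX3, EVX1, MESP1, MESP2 and TBX6. In that order only EOMES and T, and EVX1 and MESP1, were neighbours whose intervals did not overlap. MIXL1 was above 90.0% and EOMES above 89.2% of all genes on chromosomes at Day 4. At Day 0 no pair of neighbours was separated.

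The comparison with the mutant line addressed whether the factors respond to Dox or to the protein without its enzymatic activity. In the mutant line none of the 10 factors was upregulated or downregulated by Dox, against 0.605% and 0.739% of all genes, and the median log2 fold change of the 10 was -0.04. MIXL1 alone was above 4 FPKM without Dox in that line, so no other factor could be called downregulated, and shares this low give few or no calls among 10 genes. Lower values with Dox were found for 5 factors and higher values for 2, and the 2 intervals of every factor overlapped. MIXL1 came closest to a cutoff, with a ratio of 0.517 and a counting interval of 0.291 to 0.935. T was at about 1 read without and about 6 reads with Dox, and its counting interval of 0.833 to 316 includes 1. Compared with the Dox-treated mutant line, 7 factors were upregulated at Day 4 of JMJD3c (against 3.24%), the median log2 fold change was 2.82, and the intervals were apart for all 7 (against 1.61%). They were the 7 of the comparison with Day 0. T was 26.5-fold, MIXL1 12.5-fold and TBX3 6.64-fold higher, with counting intervals of 12.5 to 77.8, 7.57 to 20.7 and 3.69 to 14.1. For LHX1, with about 3 reads in the mutant line, the counting interval of the ratio was 18.3 to 269. For EOMES, with 2 reads in the mutant line, the ratio was 195 with an interval of 53.4 to 1610, and for GSC, with 1 read, it was 35.5 with an interval of 5.85 to 1450. EVX1 was at least 7.05-fold higher by the floor (lower counting limit 5.07). The same 7 were upregulated at Day 4 against the untreated mutant line (against 3.49%).

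**Figure D3:**
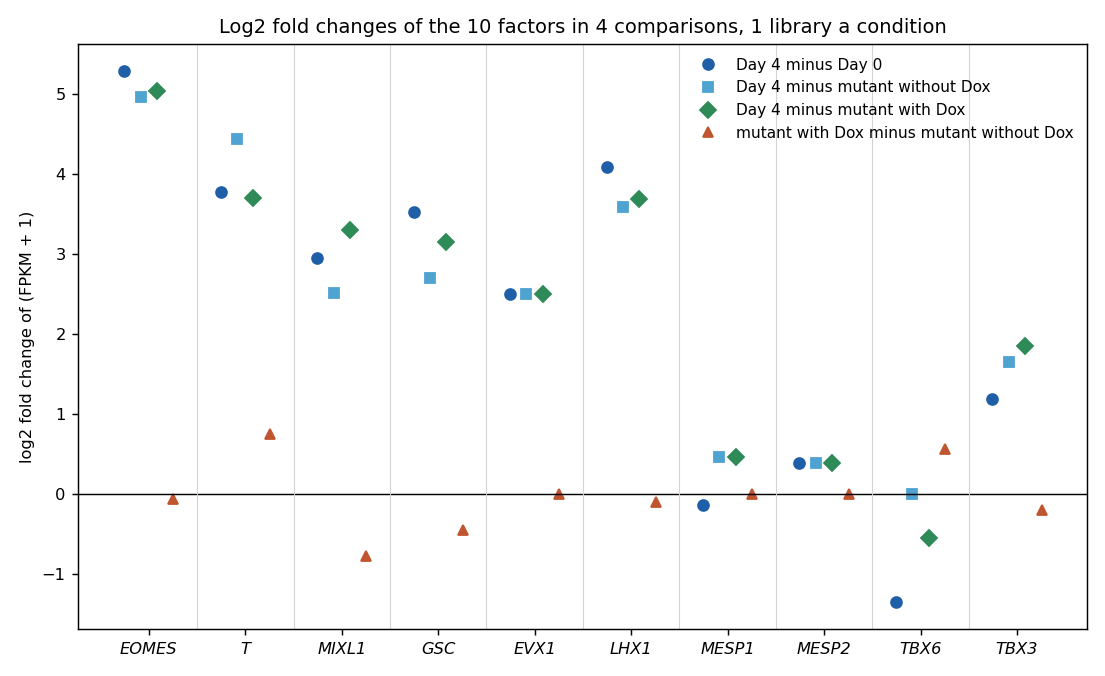
Log2 fold change of FPKM + 1 (y axis) of the 10 factors (x axis) in 4 comparisons of single libraries; there are no error bars because no condition had a replicate. The 3 comparisons of Day 4 of JMJD3c lie together for EOMES, T, MIXL1, GSC, EVX1, LHX1 and TBX3, all above 1, while the mutant comparison lies between -0.78 (MIXL1) and 0.74 (T).

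Between the untreated libraries of the 2 lines, none of the 10 factors passed a cutoff (against 1.38% of all genes that were higher in the mutant line and 3.48% that were lower), and only MIXL1 was above 4 FPKM in either. LHX1 was 0 at Day 0 and 0.417 FPKM in the untreated mutant line, and TBX6 was 1.56 and 0 FPKM. For both genes the intervals were apart, with 0 to 0 as the interval of the value listed at 0.

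The signals around the streak factors changed less evenly. Of 11 ligands examined, 2 were upregulated and 1 was downregulated at Day 4 compared with Day 0, against 2.98% and 3.84% of all genes. BMP2, a BMP ligand, was at 0.992 FPKM at Day 0 and 6.40 FPKM at Day 4, and FGF17 was at 0.373 and 4.34 FPKM. FGF8, the FGF of the streak, fell from 13.8 to 5.84 FPKM, although its intervals overlapped. NODAL, the ligand that maintains both pluripotency and the streak, was at 68.2 FPKM at Day 0 and 65.3 FPKM at Day 4, and WNT3 was at 6.06 and 10.9 FPKM. The median log2 fold change of the ligands was 0.41. Compared with the Dox-treated mutant line, 5 ligands were upregulated (against 3.24% of all genes) and none was downregulated. In that line 7 of the 11 ligands were lower with than without Dox and 3 were higher. GDF3 (22.7 FPKM without and 11.1 FPKM with Dox) and BMP4 (5.16 and 2.08 FPKM) were downregulated, against 0.739% of all genes. The intervals were apart for GDF3 but not BMP4. NODAL (55.3 and 34.3 FPKM), WNT3 (5.3 and 2.8 FPKM) and FGF4 were lower with intervals apart but did not pass the cutoffs. Of 20 receptors and effectors, which include the SMAD and TCF/LEF factors, none passed a cutoff at Day 4 compared with Day 0, and their median was -0.17. The shares of 2.98% and 3.84% over all genes give few or no calls among 20 genes. Against either mutant library TCF7 alone was upregulated at Day 4, with 7.29 FPKM against 2.46 FPKM without and 3.20 FPKM with Dox. FOXH1, the partner of SMAD2 at Nodal targets, was at 50.7 FPKM at Day 0 and 29.3 FPKM at Day 4.

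Most, but not all, of the secreted inhibitors and feedback genes rose along with the streak factors. Of 11, 8 were upregulated at Day 4 compared with Day 0 (against 2.98% of all genes). None was downregulated, and the median log2 fold change was 1.91. CER1, an inhibitor of Nodal, BMP and WNT, was listed at 0 at Day 0 and reached 34.0 FPKM at Day 2 and 134 FPKM by the last day. SP5, a WNT target gene, rose from 0 to 28.2 FPKM, DKK4, a WNT inhibitor, from 0 to 18.4 FPKM, and CHRD, a BMP inhibitor of the organizer, from 0.241 to 17.3 FPKM. LEFTY1, LEFTY2, FST and SFRP1 were the others. SFRP1 was at 68.0 FPKM at Day 2 and 52.8 FPKM at Day 4. It was not called at Day 4 against either mutant library, where 7 of the 11 were upregulated. AXIN2 was lower at Day 4 (14.4 FPKM) than at Day 0 (17.6 FPKM), with overlapping intervals. NOG was at 0.333 and 0.243 FPKM, and DKK1 at 0 and 2.33 FPKM. None of the 11 was called by Dox in the mutant line, against 0.605% of all genes upregulated and 0.739% downregulated. In the mutant line with Dox, CER1 was at 0.924 FPKM and LEFTY1 at 10.6 FPKM, against 1.62 and 20.7 FPKM without Dox.

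Genes of later mesoderm did not follow as a group. Of 21 genes, 2 were upregulated (TWIST1, 0 to 5.61 FPKM, and TBX5, 2.10 to 8.34 FPKM) and 1 was downregulated at Day 4. Over all genes the shares were 2.98% and 3.84%, which give few or no calls among 21 genes. The gene that fell was KDR, a VEGF receptor of blood and vessel progenitors. KDR went from 13.1 FPKM at Day 0 to 5.51 after 2 days and 3.79 after 4. It was at 13.4 and 10.3 FPKM in the mutant line without and with Dox. MSGN1, HAND1, HAND2, FOXF1, MEOX1 and OSR1 were listed at 0 in all 7 libraries. The median log2 fold change was 0.00. Among 16 T-box and homeobox relatives of the factors, TBX5 alone was upregulated. Of 8 genes of the epithelial-mesenchymal transition, 3 were upregulated (VIM, FN1 and CDH2), and CDH1, the epithelial cadherin that cells lose as they leave the streak, was at 85.3 FPKM at Day 0 and 75.8 FPKM at Day 4. VIM, an intermediate filament of mesenchymal cells, was at 46.9 FPKM at Day 0 and 704 FPKM at Day 4, and it was also upregulated in the mutant line, with 44.1 FPKM without and 138 FPKM with Dox.

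Of the markers of other cell types, those of definitive endoderm rose by day along with the streak factors. Of 6 definitive endoderm markers, 5 were upregulated at Day 4 (SOX17, FOXA2, GATA4, GATA6 and CXCR4), against 2.98% of all genes. The summed level of the 6 was 1.11 FPKM at Day 0, 90.2 FPKM at Day 4, and 5.45 and 4.53 FPKM in the mutant line. Of 6 neuroectoderm markers, ZIC1 and PAX6 were upregulated at Day 4, though the intervals of neither were apart from those of Day 0. ZIC1 went from 4.99 FPKM at Day 0 to 22.2 after 1 day and 15.8 after 4. At Days 1 to 3 its intervals were apart from that of Day 0. NEUROG2 was at 0 in all libraries. The summed level of the neuroectoderm markers ranged from 22.7 to 32.3 FPKM at Days 1 to 4, against 7.22 FPKM at Day 0. At Day 4 compared with Day 0, none of 6 trophoblast and amnion markers and none of 6 fibroblast markers passed a cutoff. Shares of 2.98% and 3.84% over all genes give few or no calls among 6 genes. No trophoblast and amnion marker was above 4 FPKM in either library, so none could be called. GATA3 was at 0 and 2.68 FPKM, and its Day 4 interval was above those of Day 0 and both mutant libraries. KRT7 fell from 3.98 to 1.06 FPKM, with the 2 intervals apart. CGA and TP63, and DCN and LUM, were listed at 0 in all 7 libraries. The 8 pluripotency markers were all lower at Day 4 than at Day 0, by a median log2 fold change of -0.63, and SOX2 and DNMT3B passed the cutoff. All 8 were also lower with than without Dox in the mutant line, by a median of -0.20. Compared with the Dox-treated mutant line, all 8 were lower at Day 4 by a median of -0.15, and none passed a cutoff. The part of these cell types in the levels of the streak factors was not tested.

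**Figure D4:**
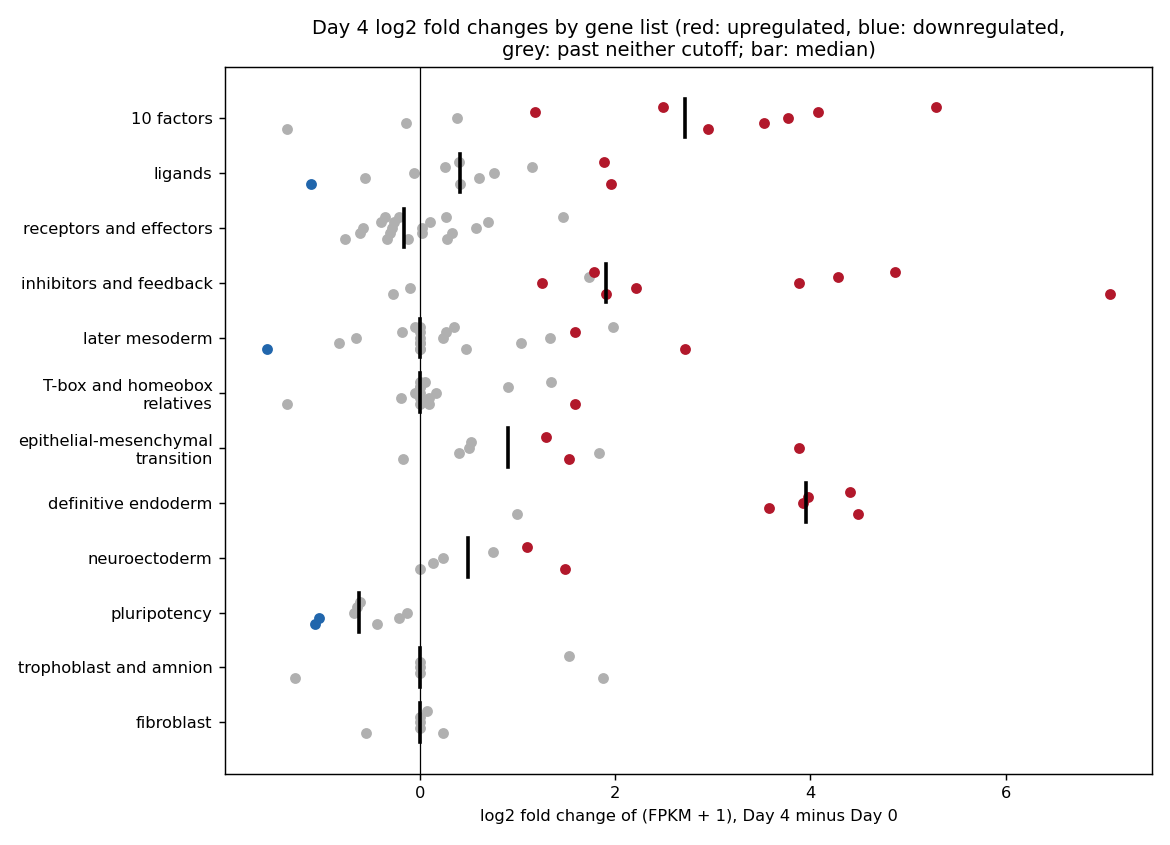
Log2 fold change of FPKM + 1 at Day 4 compared with Day 0 (x axis) for each gene of 12 lists (y axis), with 1 point per gene, red for upregulated, blue for downregulated, grey for past neither cutoff, and a bar for the median of the list. The medians of the streak factors (2.72), the definitive endoderm markers (3.95) and the inhibitors and feedback genes (1.91) lie to the right of the others.

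The genes whose levels most resembled the mean log2(FPKM + 1) of the 10 factors over the 7 libraries were ALPK3, DUSP4, TMEM185B, KIAA1161, PPP1R3B, CST1, PDE8A and SP5, with Pearson's r between 0.9877 and 0.9967. Of the 7 points, 5 are the time course of 1 line, so these values are a description. CST1, which encodes a cystatin, was at 0, 1.35, 13.4, 45.6 and 62.6 FPKM over the 5 days, and at 0 in both mutant libraries. DUSP4, a phosphatase that acts on MAP kinases, rose from 0.843 to 7.52 FPKM and was at 0.511 and 0.526 FPKM in the mutant line. Each factor is itself part of the mean, so its r with the mean is partly built in. This r was 0.988 for EOMES, 0.982 for T, 0.970 for LHX1, 0.964 for GSC and 0.953 for MIXL1. It was 0.860 for EVX1, 0.855 for TBX3, 0.581 for MESP2, 0.119 for MESP1 and -0.119 for TBX6.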

How the data were processed

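RNA-seq libraries from poly(A) RNA were prepared with a directional kit and sequenced as single-end reads of 150 bases. Reads were aligned to hg19 (TopHat 2.0.13), and the authors deposited FPKM values per gene from Cufflinks 2.1.1, with 95% intervals. Whether strand was used in quantification is not given in the sources used here. All 10 genes had 1 row each and the status OK in all samples. Log2 fold changes used a pseudocount of 1, which understates the change of low genes. Depth was estimated from single-exon genes (341 genes) as the unit in which low values are whole reads, with 200 bases subtracted from transcript length. Of the low values, 73.3% to 85.2% then came out whole, within a tolerance of 0.03 read. For genes without such steps, reads were estimated from the longest GENCODE 44 transcript, and floors from the shortest complete coding transcript. Ratios of reads carry exact binomial 95% intervals. No test was made across genes. Named genes were the 10 factors, the genes of lists that passed a cutoff (the largest changes first), genes of the lists that did not pass given for their role, chosen after their values were seen, and the 8 genes most correlated with the mean of the factors. The factors and lists were chosen with earlier results of these data known. Alternatives changed the cutoffs, scaling, pseudocount, rows per name and reference. The calculations used Python 3.11.15, numpy 2.4.6, pandas 2.3.3 and matplotlib 3.10.9, and were tested on simulated data. The promoter sequences are from RefSeq on GRCh38.p14.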

Additional observations from a re-analysis of the deposited data

Results flagged for a closer look

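Of the 7 factors upregulated at Day 4 of JMJD3c, 5 had lower values with than without Dox in the mutant line, where none of them passed a cutoff. The log2 fold changes in the JMJD3c line were 5.29 for EOMES, 2.95 for MIXL1, 3.52 for GSC, 4.08 for LHX1 and 1.18 for TBX3. In the mutant line they were -0.07, -0.78, -0.45, -0.10 and -0.21. Without and with Dox in that line, EOMES had about 3 and 2 reads, GSC 3 and 1, and LHX1 about 5 and 3. MIXL1 had about 41 and 19 reads, and TBX3 about 19 and 12. The counting interval of the mutant ratio included 1 for all of these but MIXL1 (0.291 to 0.935). The difference between the lines was not tested, since each condition is 1 library, and the mutant intervals overlapped for all 5.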

How the results depend on the processing

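The 8 counts and medians were recomputed in 62 ways, of which 2 were chosen after seeing the data, and 56 stayed within 1.5 times the count, or within the range that the Cufflinks bounds give for the median. Counts have no sign, and the median at Day 4 stayed positive in every alternative. The median by Dox in the mutant line did change sign, as given below. Some of the 56 could not have moved. Summing rows of a name changes nothing, since no factor had more than 1 row. The count of 0 by Dox in the mutant line cannot fall under a stricter cutoff. Without an FPKM cutoff, 7 factors were upregulated at Day 2, 5 at Day 1 and 2 by Dox in the mutant line (T and TBX6). With a cutoff of 1 FPKM, 3 were upregulated at Day 1 (EOMES, T and LHX1). The median log2 fold change at Day 4 was 3.95 with a pseudocount of 0.1 and 1.48 with a pseudocount of 4. With values under 3 reads set to 3 reads and no pseudocount it was 2.34, and the median by Dox in the mutant line, which is near 0, went from -0.04 to 0.19. A fold cutoff of 4 dropped TBX3 at Day 4. Scaling by the upper quartile shifted Days 1 to 4 by 0.11 to 0.14 on the log2 scale against Day 0 and called the same 7 factors at Day 4. No paired analysis was possible because every condition has 1 library. Depth limits MESP1 and MESP2, with 0 to 2 reads in every library, and the untreated values of EOMES, T, GSC, EVX1 and LHX1, with 0 to about 5 reads.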
